A study of Mus musculus with 6 samples.

Results

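Guides against the host genes of 3 metabolic enzymes, Phgdh, Gldc and Fbp2, were followed in a pooled CRISPR-Cas9 growth screen. A row of the count table was taken when its guide name carried one of these 3 gene symbols, which gave 6 guides, 2 per host, out of 151 named guides, and 3 of 73 host genes. All 6 had counts in each library and passed the minimum of 10 counts in at least 3 libraries, which 136 named guides and 67 targets passed. The cells were C57BL/6 mouse embryonic stem cells of 1 line, named #693 in the labels, infected with pooled lentivirus made with lentiCRISPR v2, which delivers Cas9 and the guide from a single vector. The intended targets were upstream translons, translated segments that precede an mRNA's main open reading frame, and a host is the gene whose upstream translon a guide was meant to cut. The groups were 3 libraries from day 0 and 3 from day 10, all from infected cells. The libraries are called biological replicates in the labels, and the column headers tie the day 0 and day 10 library of each number to 1 screen. The assay counts guide cassettes and holds no measure of editing, of mRNA or of protein for any host.

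The 3 enzymes sit in neighbouring parts of central carbon metabolism. Phgdh encodes phosphoglycerate dehydrogenase, which takes a glycolytic intermediate into the synthesis of serine. Serine and glycine are interconverted by serine hydroxymethyltransferases, and both feed one-carbon units into the folate cycle that supplies nucleotide synthesis. Gldc encodes glycine decarboxylase, the pyridoxal phosphate enzyme of the mitochondrial glycine cleavage system. Fbp2 encodes the muscle form of fructose bisphosphatase, which runs a step of gluconeogenesis opposite to phosphofructokinase.

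The guide sequences are shown because the pairs differ in layout, which bears on how far 2 guides of a host are separate tests of it. Each is written from its 5′ end as deposited, and capitals mark the stretch that both guides of a host share.

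Phgdh guide 1: acccacagcaactgattcta

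Phgdh guide 2: cgaaggccattgctagagtc

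Gldc guide 1: CGCTGCTGACCCTCGTgggc

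Gldc guide 2: aaagCGCTGCTGACCCTCGT

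Fbp2 guide 1: AAGGAGCAAAgggaggcttt

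Fbp2 guide 2: ggatttctacAAGGAGCAAA

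The Phgdh guides had no stretch in common longer than 3 bases on the same strand or 5 bases on the opposite strand. The last 16 bases of Gldc guide 2 were the first 16 of Gldc guide 1, so on a shared target the guides would lie 4 bases apart. The last 10 bases of Fbp2 guide 2 were the first 10 of Fbp2 guide 1, which would place these guides 10 bases apart. In both overlapping pairs the 3 bases that follow guide 2 within guide 1 were GGG, which fits the NGG motif recognised by Cas9 next to a target. GC content was 45% and 55% for Phgdh guides 1 and 2, 75% and 60% for Gldc, and 50% and 40% for Fbp2, against a median of 60% (range 25 to 90%) over the tested guides. None of the 6 guides (0) held the triplet ATG, and Phgdh guide 2 held its reverse complement, CAT. The positions of the guides in the genome were not analysed here. Each host has 1 window in the RefSeq promoter table (build GRCm38.p6), which covers 250 bases before to 50 bases after a gene start, and none of the 6 guides matched a window of any gene on either strand, while 15 of the 145 targeting guides did.

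Library depth was uneven, and with it the counting error of each screen. Named guides had 102313, 113909 and 602476 counts at day 0 in screens 1, 2 and 3, and 646655, 784149 and 21991 at day 10. The day 10 library of screen 3 was therefore the shallowest, with a median of 97 counts per tested guide. Levels below are counts per 1e6 counts (CPM), after scaling of libraries with edgeR's TMM factors (trimmed mean of M-values). Changes are log2 fold changes of day 10 over day 0 from edgeR's quasi-likelihood test on all tested guides or targets, with Benjamini-Hochberg adjustment and a threshold of 0.05. The 6 control guides (3 non-targeting, 3 safe-targeting) had log2 fold changes between −0.42 and 0.55. The non-targeting guides were at 0.13, 0.32 and 0.55, and the safe-targeting guides at 0.0024, −0.37 and −0.42.

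The 3 hosts started at different levels. At day 0 the summed Gldc guides took between 2.34% and 2.44% of the named counts of a library, the Fbp2 guides between 1.00% and 1.07%, and the Phgdh guides between 0.274% and 0.319%. These ranges did not overlap. By mean day 0 CPM, Gldc ranked 12, Fbp2 40 and Phgdh 62 of the 67 tested targets, so of the 3 hosts Phgdh rested on the fewest counts. The remaining targets of the 73 had no counts. Phgdh was also uneven between its guides, with guide 1 holding 90.2 to 91.4% of the host's day 0 counts. Gldc guide 1 held 55.8 to 57.4% and Fbp2 guide 1 held 34.4 to 36.8% of their hosts.

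Guides against Phgdh became rarer between day 0 and day 10, and those against Gldc and Fbp2 did not pass the test. Phgdh guide counts fell to 52.5% of their day 0 CPM, while Gldc stood at 107% and Fbp2 at 93.5%. Of the 6 guides, 2 passed the threshold, both lower and both against Phgdh, where 21.3% of all tested guides passed in either direction and 14.7% passed as lower. Of the 3 hosts, 1 passed, where 37.3% of all tested targets did and 22.4% did as lower. With so few members, and both called guides from 1 host, the members' shares (2 of 6, 1 of 3) do not set them apart from the whole screen.

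Phgdh, the entry enzyme of serine synthesis, had summed levels of 2824, 2749 and 3149.6 CPM at day 0 in screens 1 to 3, and 1547, 1535 and 1497 CPM at day 10. Every day 10 library lay below every day 0 library, and the day 10 libraries lay close together. The day 10 value of screen 3 stood on 33 counts, so this closeness is no measure of that library's precision. Non-overlapping days were found for 47.8% of all tested targets, 20.9% with day 10 lower. The means were 2908 ± 213 CPM at day 0 and 1527 ± 26.0 at day 10 (SD, n = 3 per day), and the log2 fold change was −0.93 with an SE of 0.12 (adjusted p = 2.5e-05, edgeR). With the screen number as a block it was −0.89 (edgeR adjusted p = 0.00295), where 25 of 67 targets passed. Leaving out any 1 library from the fit on day alone kept the value between −0.97 and −0.87. With the trend over guide GC content removed it was smaller, at −0.76 (edgeR adjusted p = 0.00227), where 22 of 67 targets passed.

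Phgdh guide 1 carried most of that host's counts. Its levels were 2580.4, 2484.9 and 2841 CPM at day 0, and 1455, 1459 and 1361 CPM at day 10. Every day 10 library lay below every day 0 library, which was so for 20.6% of all tested guides. The log2 fold change was −0.88 with an SE of 0.14 (adjusted p = 0.00311, edgeR), leaving 54.1% of the day 0 level. With the GC trend removed the log2 fold change was −0.71 (edgeR adjusted p = 0.0277), where 10 of 136 guides passed.

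Phgdh guide 2 was rare from the start and ranked 132 of the 136 tested guides at day 0, as the other named guides had no counts. It had 25, 30 and 188 counts at day 0 and 59, 59 and 3 counts at day 10. As levels these were 243, 264 and 309 CPM at day 0, and 92.1, 75.5 and 136 CPM at day 10. The days did not overlap here either, with day 10 lower, which was so for 20.6% of all tested guides. The highest day 10 value, in screen 3, stood on 3 counts. The log2 fold change was −1.66 with an SE of 0.38 (adjusted p = 0.0131, edgeR), leaving 37.2% of the day 0 level. With the screen number as a block the value was −1.53 and the call was lost (edgeR adjusted p = 0.0790), and 8.82% of all guides passed in that fit. The call was also lost without day 0 replicate 1, 2 or 3 (log2 fold changes of −1.70, −1.66 and −1.53, edgeR adjusted p = 0.0748, 0.0771 and 0.107). Few guides passed in these fits, 3 of 135, 5 of 136 and 9 of 135 in that order, against 29 of 136 with all libraries.

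The fall of Phgdh was present in each screen on its own. The log2 ratio of day 10 to day 0 CPM of the summed guides was −0.87 in screen 1 (95% interval −1.06 to −0.67), −0.84 in screen 2 (−1.02 to −0.66) and −1.07 in screen 3 (−1.62 to −0.58). These intervals are exact binomial ones and cover counting error only, and a screen with 1 library per day allows no test. They overlap one another, so the screens are not told apart at this depth. Among the 67 targets, 0 had a lower ratio than Phgdh in screen 1, 1 in screen 2 and 1 in screen 3.

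For Phgdh guide 1 the ratios were −0.83, −0.77 and −1.06 in screens 1, 2 and 3, and each interval lay below 0. For Phgdh guide 2 they were −1.40 (−2.10 to −0.67), −1.81 (−2.46 to −1.12) and −1.18 (−3.47 to 0.39). The interval of guide 2 in screen 3 includes 0, with 3 counts behind it. In screen 2 this guide had the lowest ratio of all 136 tested guides, with 0 below it.

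The guides of Phgdh were compared with each other through the log2 ratio of their counts within a library, which does not depend on how libraries are scaled. Guide 1 exceeded guide 2 by 3.38, 3.21 and 3.20 on this log2 scale at day 0, and by 3.97, 4.26 and 3.12 at day 10. The ratio was higher at day 10 in screens 1 and 2, and screen 3 lay below all day 0 values. The difference of the means was 0.52 (exact two-sided permutation p = 0.4, adjusted p = 0.48 over 6 ratios), so the larger fitted fall of guide 2 was within the spread between libraries. Leaving out day 10 replicate 2 gave 0.28, and leaving out replicate 3 of that day gave 0.85. The smallest p that 3 libraries against 3 allow is 0.1.

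Gldc, the glycine decarboxylase host, had the highest levels and small differences between the days. Its summed guides stood at 23700.4, 23439 and 24090.5 CPM at day 0 and at 26498, 24672 and 25364 CPM at day 10. All day 10 libraries lay above all day 0 libraries, which 26.9% of all tested targets also showed. The log2 fold change was 0.10 with an SE of 0.053 (adjusted p = 0.128, edgeR). It passed the threshold without day 10 replicate 2, at 0.15 (edgeR adjusted p = 0.0462), a fit in which 26 of 67 targets passed. With limma voom and a variance per day it also passed, at 0.092 (limma adjusted p = 0.0464), where 55.2% of the targets passed. Without day 10 replicate 1 it was 0.057, and with the trend over guide GC content removed 0.032.

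The 2 overlapping Gldc guides are given separately. Gldc guide 1 had 13223, 13376 and 13826 CPM at day 0 and 13433, 13213 and 14792 CPM at day 10. Its days overlapped, and the log2 fold change was 0.020 with an SE of 0.068 (adjusted p = 0.903, edgeR). Gldc guide 2 had 10477, 10063 and 10265 CPM at day 0 and 13066, 11459 and 10572 CPM at day 10. For this guide each day 10 library was above each day 0 library, which was so for 17.6% of all tested guides, but the screen 3 value was close to the day 0 range. The log2 fold change was 0.21 with an SE of 0.084 (adjusted p = 0.116, edgeR). It passed the threshold without day 10 replicate 3, at 0.26 (edgeR adjusted p = 0.0366), a fit in which 37 of 136 guides passed. With limma voom and a variance per day it also passed, at 0.24 (limma adjusted p = 0.0130), where 36.8% of the guides passed. Without day 10 replicate 1 it was 0.12 (edgeR adjusted p = 0.161).

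By screen, the log2 ratio of day 10 to day 0 CPM of Gldc guide 2 was 0.32 (0.23 to 0.41), 0.19 (0.098 to 0.28) and 0.043 (−0.15 to 0.23) in screens 1, 2 and 3. That of Gldc guide 1 was 0.023 (−0.060 to 0.11), −0.018 (−0.096 to 0.061) and 0.097 (−0.067 to 0.26). With libraries scaled by the geometric mean of the 6 control guides, guide 2 gave 0.48, 0.15 and −0.066, and guide 1 gave 0.18 (0.10 to 0.27), −0.053 and −0.011, so both were below 0 in screen 3, with intervals that include 0. In screens 1 and 2 the TMM-scaled intervals of the guides do not overlap, with guide 2 higher, and in screen 3 they do. The log2 ratio of guide 1 to guide 2 within a library was 0.34, 0.41 and 0.43 at day 0, and 0.040, 0.21 and 0.48 at day 10. The difference of −0.15 was within the spread between libraries (exact two-sided permutation p = 0.4, adjusted p = 0.48 over 6 ratios). Leaving out day 10 replicate 1 gave −0.047, and leaving out replicate 3 of that day gave −0.27.

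Fbp2, the fructose bisphosphatase host, had day 10 libraries on both sides of its day 0 libraries. Its summed guides stood at 10614, 10036 and 10191 CPM at day 0 and at 7674, 9678 and 11479.7 CPM at day 10. The day 10 libraries of screens 1 and 2 lay below the day 0 range and that of screen 3 above it. The log2 fold change was −0.15 with an SE of 0.11 (adjusted p = 0.329, edgeR). Without day 10 replicate 1 it was −0.034, and without day 10 replicate 3 it was −0.24 (edgeR adjusted p = 0.0696). It turned to 0.011 with the trend over guide GC content removed. With limma voom and a variance per day it passed the threshold, at −0.21 (limma adjusted p = 0.0294), where 55.2% of the targets passed.

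Of the Fbp2 guides, guide 2 had the larger distances between day 10 libraries. Fbp2 guide 2 had 6962, 6344 and 6637 CPM at day 0 and 4567, 5651 and 8031 CPM at day 10. Its log2 fold change was −0.21 with an SE of 0.16 (adjusted p = 0.390, edgeR), and the day 10 values enclosed the day 0 range. It passed the threshold without day 10 replicate 3, at −0.38 (edgeR adjusted p = 0.0366), a fit in which 37 of 136 guides passed. With limma voom and a variance per day it also passed, at −0.36 (limma adjusted p = 0.0145), where 36.8% of the guides passed. Without day 10 replicate 1 it was −0.11, and with the GC trend removed −0.018. Fbp2 guide 1 had 3651, 3692 and 3553 CPM at day 0 and 3107, 4027 and 3448 CPM at day 10, with a log2 fold change of −0.035 with an SE of 0.12 (adjusted p = 0.903, edgeR). Its direction was not stable, at 0.092 without day 10 replicate 1 and −0.16 without day 10 replicate 2.

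For the summed Fbp2 guides, the log2 ratio of day 10 to day 0 CPM was −0.47 (−0.56 to −0.37) in screen 1, −0.052 (−0.14 to 0.039) in screen 2 and 0.17 (−0.015 to 0.35) in screen 3. The interval of screen 1 lies apart from those of screens 2 and 3. With libraries scaled by the geometric mean of the 6 control guides, the summed values were −0.31, −0.087 and 0.064 (−0.12 to 0.25) in screens 1, 2 and 3. Fbp2 guide 2 gave −0.61 (−0.73 to −0.49), −0.17 (−0.28 to −0.051) and 0.28 (0.050 to 0.49) in the same order, and none of these intervals overlap. Fbp2 guide 1 gave −0.23 (−0.39 to −0.070), 0.13 (−0.022 to 0.28) and −0.043 (−0.39 to 0.29). Under the control scaling guide 2 gave −0.45, −0.20 and 0.17 (−0.059 to 0.38) and guide 1 gave −0.072 (−0.23 to 0.091), 0.090 and −0.15, so the intervals of guide 2 in screen 3 and of guide 1 in screen 1 then included 0. The intervals of guide 2 did not overlap under either scaling. The log2 ratio of guide 1 to guide 2 within a library was −0.93, −0.78 and −0.90 at day 0 and −0.56, −0.49 and −1.21 at day 10, a difference of 0.12 (exact two-sided permutation p = 0.7, adjusted p = 0.7 over 6 ratios). It was 0.019 without day 10 replicate 1, −0.014 without day 10 replicate 2 and 0.35 without day 10 replicate 3.

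The hosts were also compared directly within each library. The log2 ratio of Phgdh to Gldc counts was −3.07, −3.09 and −2.93 at day 0 and −4.10, −4.01 and −4.06 at day 10. The days did not overlap, and the difference of −1.02 had the smallest p that the design allows (exact two-sided permutation p = 0.1, adjusted p = 0.3 over 6 ratios). The log2 ratio of Phgdh to Fbp2 went from −1.91, −1.87 and −1.69 to −2.31, −2.66 and −2.92, a difference of −0.81 with the same exact permutation p of 0.1 (adjusted p = 0.3 over 6 ratios). Phgdh was thus lower relative to either host in 3 of 3 screens. For Gldc against Fbp2, the log2 ratio was 1.16, 1.22 and 1.24 at day 0 and 1.79, 1.35 and 1.14 at day 10, and the difference of 0.22 was within the spread between libraries (exact two-sided permutation p = 0.4, adjusted p = 0.48 over 6 ratios). Leaving out day 10 replicate 1 gave 0.038, and leaving out replicate 3 of that day gave 0.36.

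A list of 31 genes of serine synthesis, glycine and folate one-carbon metabolism, glycolysis and gluconeogenesis had 4 genes among the targets, the 3 hosts and Shmt1. Of these 4, 1 fell (Phgdh) and 0 rose, where 22.4% of all tested targets fell and 14.9% rose, so these counts are near those of the whole screen. Their median log2 fold change was −0.068, against 0.020 over all tested targets. Shmt1 encodes the cytosolic serine hydroxymethyltransferase, which converts serine to glycine. Its summed guides had 11996, 13314 and 12593 CPM at day 0 and 12571, 12439.5 and 13567 CPM at day 10. The days overlapped, and the log2 fold change was 0.012 with an SE of 0.076 (adjusted p = 0.923, edgeR).

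Ordered by log2 fold change over the 67 tested targets, Phgdh was second from the lowest, at rank 2. The target below it was Rps12, at −0.94 ± 0.12 (SE), which Phgdh did not differ from beyond these errors, and the targets above it were Rps6, at −0.66 ± 0.15 (SE), and Cnot1, at −0.49 ± 0.090 (SE). Fbp2 stood at rank 18 between Jarid2 and Rpl41 below, at −0.20 and −0.19, and Ddx5 and Txndc12 above, at −0.12 and −0.099. Gldc stood at rank 48 between Ap2m1 and Ulk1 below, at 0.097 and 0.099, and Zbtb17 and Cnbp above, at 0.11 and 0.13. These neighbours lay within 1 SE of Fbp2 or Gldc. Phgdh lay below the lowest control guide, while Fbp2 and Gldc lay within the pooled range of the controls. Hosts are summed guides here and each control is a single guide. By kind of control, Gldc lay above every safe-targeting guide and below every non-targeting guide. Fbp2 lay below every non-targeting guide and within the range of the safe-targeting ones.

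Profiles over the 6 libraries were compared as correlations of log2(CPM + 1), as a description, since all guides share the same libraries. Phgdh guide 1 was most like Rps12 guide 2 (Pearson r = 0.995), Trim28 guide 1 (r = 0.985) and Rps6 guide 2 (r = 0.981). These 3 guides had log2 fold changes of −0.94, −0.50 and −0.59. Phgdh guide 2 was most like Cnot1 guide 1 (r = 0.964), which changed by −0.45. Gldc guide 2 was most like Smim13 guide 1 (r = 0.970), which changed by 0.40, and Fbp2 guide 2 was most like Eif5 guide 2 (r = 0.950), at −0.26. For Gldc guide 1 the highest correlation was 0.932, with Dppa5a guide 1 at −0.058, and for Fbp2 guide 1 it was 0.976, with Phb guide 2 at −0.027. Dppa5a guide 1 was rare, with 11 counts in the day 10 library of screen 3. Next most like Fbp2 guide 1 was a safe-targeting control guide (r = 0.930), which changed by −0.37.

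The scaling of libraries bore on the calls for single Phgdh guides. With library sizes from the geometric mean of the 6 control guides, both Phgdh guides passed, at −0.85 and −1.61 (edgeR adjusted p = 0.0165 and 0.0376), and 6.62% of all guides and 13.4% of all targets passed. With the median ratio over the same controls, neither did, at −0.83 and −1.55 (edgeR adjusted p = 0.0556 and 0.102), and in that fit 0 of the 136 guides passed in edgeR, with 19 at an unadjusted p under 0.05. The summed Phgdh guides passed under both, at −0.89 and −0.87 (edgeR adjusted p = 3.0e-04 and 0.00176).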

How the data were processed

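The authors deposited raw counts per guide sequence for 6 libraries. The submitters' processing notes name Bowtie2 2.3.4.3; the counting rule is not given in the sources used here. Missing entries were read as 0. Unnamed sequences took 1.25 to 1.48% of a library's counts and were left out. All 3 host symbols matched the RefSeq gene table. A guide was tested when 3 or more libraries held at least 10 of its counts, with edgeR 4.0.16 (R 4.3.3; TMM factors, day as the only term). Host counts were the sums over a host's guides, and the SE was the log2 fold change divided by the square root of F. Count ratios within a library had 0.5 counts added. Python 3.11.15 with scipy 1.17.1 computed exact permutation tests and 95% Clopper-Pearson intervals. The edgeR step was tested on simulated data with the same spread for all guides and both days, so a spread that differs between days was not covered. The column headers give the pairing by screen; correlations of same-numbered libraries' deviations from their day means were −0.18, −0.08 and 0.03. Whether the libraries came from separate infections is not stated, so p-values measure the spread between these libraries. The members, the gene list and the tests were chosen with earlier results of these data known. Named were the 3 hosts, all their guides, the next targets in the order of fold changes and the guides with the most similar profiles. Alternatives included DESeq2 1.42.0, limma 3.58.1, other scalings and filters, the screen as a block, and leaving out each library.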

Additional observations from a re-analysis of the deposited data

How the results depend on the processing

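The median ratio over the control guides was chosen after the data were seen. For the 3 hosts and their 6 guides, 170 comparisons with an alternative left 147 results with their direction and call, ended the call of 7, newly called 7 and turned the direction of 9. Only Phgdh and its guides had a call to lose. Their 56 comparisons kept 49 results and held all 7 ended calls. The summed Phgdh guides stayed past the threshold in all 19 alternatives run (log2 fold changes from −0.98 to −0.74, adjusted p from 5.3e-07 to 0.00295), among them the replicate block at −0.89 (edgeR adjusted p = 0.00295). Dropping the count filter, filtering on a day 0 mean of at least 100 counts and a threshold of 0.1 left this host's fit unchanged. Those alternatives could therefore not end its call. The block ended the call of Phgdh guide 2, at −1.53, also with the GC trend removed, at −1.47 (edgeR adjusted p = 0.0861), and changed no other call among the members. A filter of at least 100 counts on the day 0 mean removed Phgdh guide 2.

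Without 1 library at a time, the summed guides ranged from −0.97 to −0.87 for Phgdh, from 0.057 to 0.15 for Gldc and from −0.24 to −0.034 for Fbp2. Voom with a variance per day took Gldc, at 0.092, and Fbp2, at −0.21, past the threshold. With the GC trend removed, without and with the block, Fbp2 turned to 0.011 and 0.020, Gldc guide 1 to −0.10 and −0.098, Fbp2 guide 1 to 0.062 and 0.049, and Shmt1 to −0.016 and −0.0092. Voom turned Gldc guide 1 to −0.030 and Shmt1 to −0.011. Without single libraries, Gldc guide 1 ranged from −0.018 to 0.068, Fbp2 guide 1 from −0.16 to 0.092, Shmt1 from −0.015 to 0.052, and the ratio of Fbp2 guide 1 to guide 2 from −0.014 to 0.35. The cause was not tested.

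Over all tested guides, 29 (20 lower, 9 higher) passed, against 9 (8 lower, 1 higher) with the geometric mean of the controls, 0 with their median ratio, 12 (9 lower, 3 higher) with the replicate block, 10 and 7 (all lower) with the GC trend removed without and with the block, and 50 with voom. Over all tested targets, 25 (15 lower, 10 higher) passed, against 9 (8 lower, 1 higher) and 2 (both lower) with the control scalings. Without 1 library, guides ranged from 3 to 47 and targets from 13 to 30. Depth limited screen 3 most, where 3 counts of Phgdh guide 2 and 33 of both Phgdh guides made up the day 10 value.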

Other observations

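Among the unnamed sequences of the table, 1 shared a stretch of at least 12 bases with a guide of the 3 hosts, in either orientation. It shared 12 bases with Fbp2 guide 2 and had 1 count over the 6 libraries.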
